A study of Mus musculus with 6 samples.

Results

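The genes described here are those of glucose uptake, glycolysis and the response to low oxygen, a list of 39 gene names that covers the glucose transporter of the cell surface, the glycolytic enzymes, lactate export, glycogen, oxygen sensing and the alpha-arrestins that restrain glucose uptake. They were chosen by name in the deposited table of 15796 genes, which lists 38 of them. The liver glycogen phosphorylase gene Pygl is the member with no row. The RNA came from the mouse line MC3T3-E1, which the labels call pre-osteoblastic. One group (overexpression 1 to 3) was transfected with a plasmid carrying exogenous Hsd11b1, and the other (control 1 to 3) with a plasmid carrying EGFP, with the genotype given as WT. All 6 libraries, controls included, received 11-DHC (11-dehydrocorticosterone), a steroid without activity until 11β-HSD1, the product of Hsd11b1, reduces it to corticosterone, and no library without 11-DHC is among the samples. The promoter of the plasmid, the time and dose of 11-DHC, the glucose and oxygen of the cultures and the origin of the replicates (separate cultures or not) are not given in the labels. The p-values therefore refer to the spread among these 6 libraries, which may be technical.

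Values are FPKM, fragment numbers scaled by exon length and library depth, so levels of different genes can be set side by side. The check of the labels was clear: Hsd11b1 had 323, 315 and 345 FPKM in overexpression 1 to 3, against 1.90, 0.404 and 0.275 FPKM in control 1 to 3, where the plasmid and the endogenous gene are counted as 1. Recovered totals were 18290809 to 58665336 reads in overexpression libraries and 16264239 to 34948104 in control libraries, with overexpression 3 and control 2 the deepest. Of 9 osteoblast markers 7 were listed, with Alpl and Bglap absent, and their summed level, most of it from Spp1, Col1a1 and Col1a2, was 2410 to 2470 FPKM in overexpression and 2590 to 2870 FPKM in control libraries. Those 3 genes did not pass, nor did Sp7, at 1.84 FPKM with overexpression and 1.76 FPKM in controls. Runx2 (log2 difference 0.25, limma adjusted p = 0.0442) and Dlx5 (0.33, limma adjusted p = 0.018) rose. Both calls ended with single libraries left out (adjusted p up to 0.168 for Runx2 and 0.0748 for Dlx5). Ibsp, too low for the test, had 1.06, 1.06 and 0.973 FPKM in overexpression and 0.0243, 0.0830 and 0.208 FPKM in control libraries. Of 7 adipocyte markers 1 was listed, Fabp4, at 1.14 to 1.36 FPKM in overexpression and 0.101 to 0.159 FPKM in control libraries. Skeletal muscle (1 of 7 listed) and endothelial markers (3 of 6) summed to under 1 FPKM in every library. Macrophage markers (3 of 7) summed to 11.5 to 12.7 FPKM in overexpression and 11.9 to 13.4 FPKM in control libraries. Chondrocyte markers (3 of 6, mostly Sox9) summed to 27.8 to 31.4 FPKM in overexpression and 22.6 to 25.0 FPKM in control libraries. Sox9 rose (log2 difference 0.37, limma adjusted p = 0.00754), and its call held with each single library left out (adjusted p up to 0.0379). The part of these marker levels in the results was not tested. In bulk RNA, fewer cells of a type and less RNA per cell cannot be told apart.

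Cells take up glucose through transporters such as GLUT1, trap it by phosphorylation and split it in glycolysis to pyruvate, which lactate dehydrogenase can turn into lactate for export. Osteoblasts are known for relying strongly on glycolysis even when oxygen is present. The transcription factor HIF1A, whose protein is marked for destruction by the prolyl hydroxylases of the Egln genes when oxygen is plentiful, induces most genes of this pathway. MondoA, the product of Mlxip, senses sugar phosphates and induces Txnip and Arrdc4, whose proteins lower glucose uptake. Glucocorticoids are known to reduce glucose use in several peripheral tissues.

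Of the 38 listed members, 36 reached a mean of 1 FPKM across all 6 libraries and were tested, and each of these had a mean of at least 1.46 FPKM in both groups. The test was limma on log2(FPKM + 1) over 13120 genes, with Benjamini-Hochberg adjusted p-values and a threshold of 0.05. Txnip, Arrdc4 and Hif1a rose with Hsd11b1 overexpression, and Slc16a1, Ldha, Tpi1, Gapdh and Egln1 fell. That is 3 of 36 members higher, or 8.33%, against 6.22% of all genes tested, and 5 lower, or 13.9%, against 5.84% of all genes tested. The median log2 difference of the 36 was -0.10, with 25 below 0, while over all 13120 genes it was -0.01, with 6985 below 0.

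All 3 overexpression libraries lay below all 3 control libraries for 14 of the 38 listed members, or 36.8%, against 15.0% of all listed genes. The opposite order held for 5 members, or 13.2%, against 14.7% of all listed genes. The 14 were Hk1, Hk2, Gpi1, Pfkl, Tpi1, Gapdh, Pgk1, Ldha, Slc16a1, Tigar, Gbe1, Egln1, Egln3 and Ankrd37, and the 5 were Txnip, Arrdc3, Arrdc4, Gys1 and Hif1a. Apart from Gapdh, the ratio of group means of the tested members lay between 0.703 for Slc16a1 and 1.78 for Txnip.

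**Figure D1:**
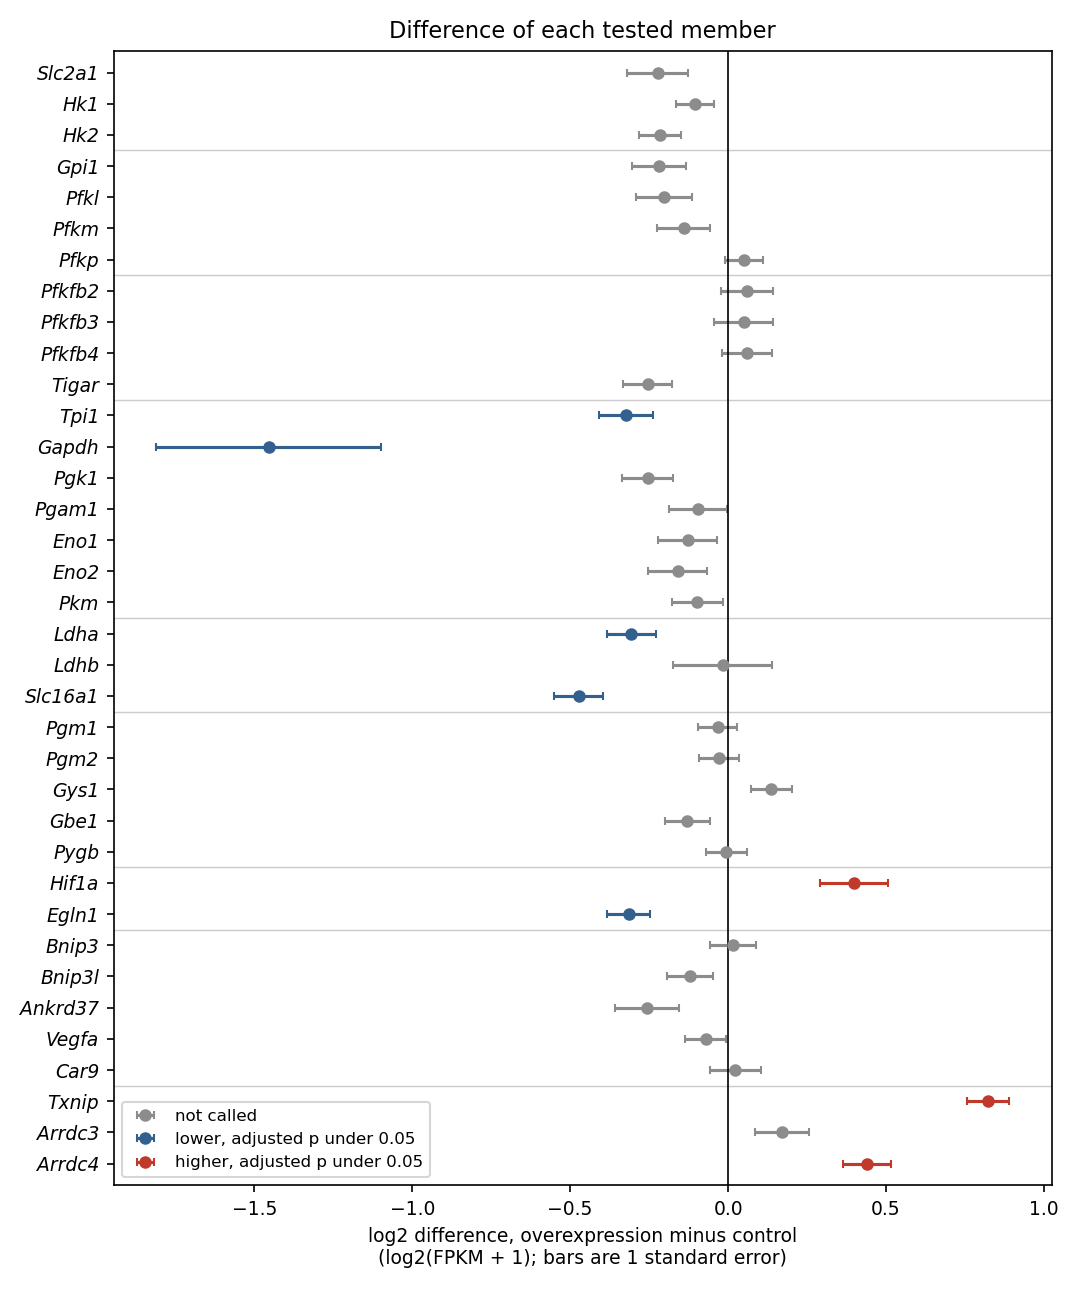
Log2 difference (overexpression minus control, on log2(FPKM + 1)) of the 36 tested members, ordered by role and separated by lines, with bars of 1 standard error. Txnip, at 0.82, stands farthest to the right, Gapdh, at -1.45 with the widest bar, farthest to the left, and most glycolytic enzymes lie between -0.35 and 0.

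Of the 3 alpha-arrestins among the members, 2 rose and the third did not pass. Txnip, which encodes thioredoxin-interacting protein, a brake on glucose uptake, had 155, 165 and 154 FPKM in overexpression 1 to 3, against 90.9, 89.9 and 85.5 FPKM in control 1 to 3. The groups were far apart, with a gap larger than the range of either. The mean was 1.78-fold higher, a change of 0.82 in log2 (SE 0.07, limma adjusted p = 0.000169). Its paralog Arrdc4, also known to lower glucose uptake, had 8.18, 8.28 and 7.50 FPKM with overexpression and 5.19, 6.03 and 5.66 FPKM in controls, again with no overlap. This was a log2 difference of 0.44 (SE 0.08, limma adjusted p = 0.00686). Arrdc3, an arrestin that acts on adrenergic receptors, had 4.69, 4.96 and 3.93 FPKM with overexpression and 3.92, 3.86 and 3.90 FPKM in controls. Overexpression 3 lay just above the controls, and the difference of 0.17 did not pass (limma adjusted p = 0.257). It passed in 1 of 16 alternatives, the one that removed a curve on GC content from each library (0.25, adjusted p = 0.0304). The calls of Txnip and Arrdc4 held in each of the 17 alternatives, with differences of 0.79 to 0.87 for Txnip and 0.29 to 0.52 for Arrdc4.

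Txnip supplied most of the RNA of the 3 alpha-arrestin members in every library. Other alpha-arrestin genes were not in the sum. Its share of the summed FPKM of Txnip, Arrdc3 and Arrdc4 was 92.3%, 92.6% and 93.1% with overexpression, against 90.9%, 90.1% and 89.9% in controls. The Arrdc4 share was 4.88%, 4.66% and 4.52% with overexpression, against 5.19%, 6.04% and 5.96% in controls. Both shares had p = 0.1 in an exact two-sided permutation test, the smallest that 3 against 3 libraries allow, and an adjusted p = 0.26 over the 13 shares computed.

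Of the other genes in this branch, 9 of 11 were listed and tested. Of these, 3 rose and 0 fell, against 6.22% higher and 5.84% lower of all genes tested. Mlxip itself, which encodes MondoA, had 18.5, 18.5 and 17.9 FPKM with overexpression and 10.4, 9.45 and 11.0 FPKM in controls (log2 difference 0.78, limma adjusted p = 0.000333). Mxd4, which encodes a Max-binding repressor, had 32.3, 31.5 and 32.4 FPKM with overexpression and 17.3, 20.2 and 19.6 FPKM in controls (0.72, limma adjusted p = 0.000509). Arrdc2, a further alpha-arrestin, had 9.15, 7.46 and 8.597 FPKM with overexpression and 4.66, 5.09 and 4.74 FPKM in controls (0.69, limma adjusted p = 0.00135). All 3 were separated without overlap, and their calls held in each of the 17 alternatives. Mlx, the partner of MondoA, averaged 15.7 FPKM with overexpression and 15.8 FPKM in controls, with a difference of -0.01 that did not pass.

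**Figure D2:**
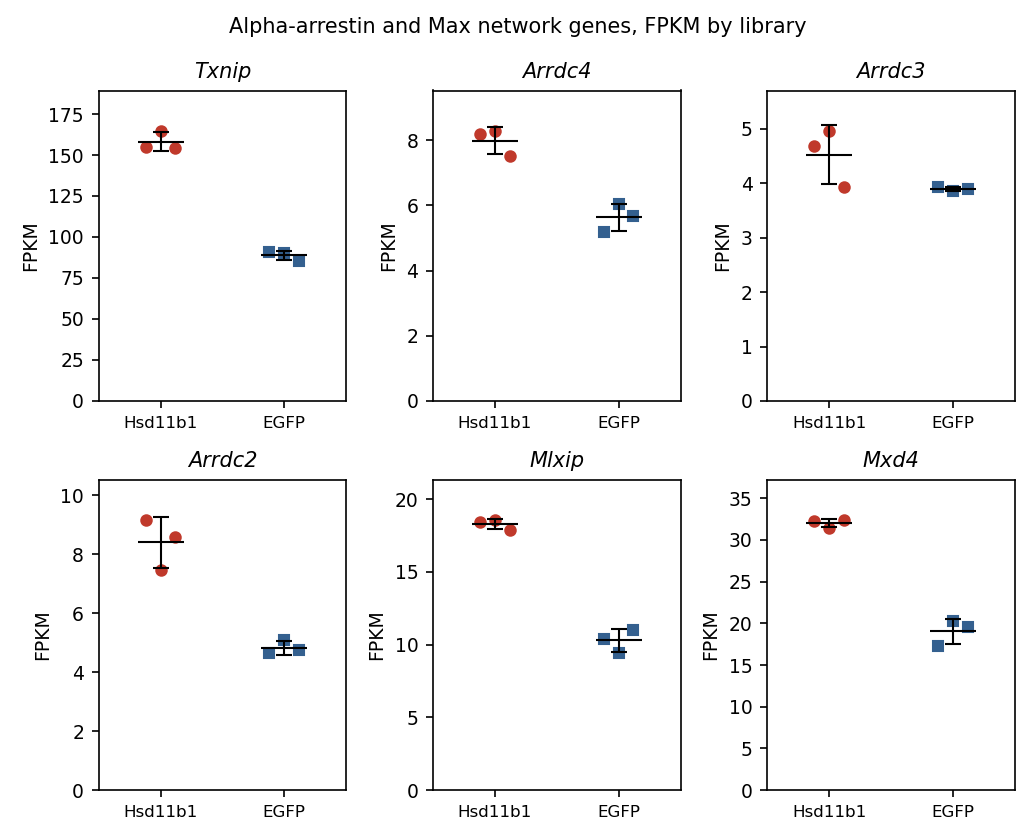
FPKM of Txnip, Arrdc4, Arrdc3, Arrdc2, Mlxip and Mxd4 in each overexpression library (Hsd11b1, circles) and control library (EGFP, squares), with the mean and 1 SD (n = 3) in black and axes that start at 0. The groups do not overlap in any panel, and in the Arrdc3 panel 1 overexpression library, at 3.93 FPKM, sits beside the controls.

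The Txnip promoter holds the tandem half-box through which MondoA is known to act on this gene. Its 250 bases upstream of the RefSeq start (chr3:96557707-96557956, plus strand, GRCm38.p6) are shown with that element in capitals, and below it stand those of Arrdc4 (chr7:68749239-68749488, minus strand) with an E-box, CACGTG, in capitals.
Txnip: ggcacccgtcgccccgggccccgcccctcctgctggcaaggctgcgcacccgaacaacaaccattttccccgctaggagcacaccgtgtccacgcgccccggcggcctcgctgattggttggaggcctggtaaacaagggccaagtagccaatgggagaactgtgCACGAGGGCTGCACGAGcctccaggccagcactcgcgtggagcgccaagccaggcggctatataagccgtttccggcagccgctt
Arrdc4: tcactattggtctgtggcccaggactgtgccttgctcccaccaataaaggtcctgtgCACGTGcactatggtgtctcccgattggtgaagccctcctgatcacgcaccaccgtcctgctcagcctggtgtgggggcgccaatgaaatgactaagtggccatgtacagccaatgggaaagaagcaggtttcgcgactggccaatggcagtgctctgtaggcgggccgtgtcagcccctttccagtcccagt

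The tandem element was searched as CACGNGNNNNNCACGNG on both strands, a form chosen after the Txnip promoter had been read. Its bases lay at -85 to -69 from the Txnip start. All motif shares here and below are over 32851 RefSeq mouse promoter windows that run from 250 bases before to 50 bases after the start, so they reach past the stretches printed. The tandem form was in 16 of them (0.0487%), and of the 52 windows of members Txnip's alone held it, a match that the choice of the form fixed. The carbohydrate response element, searched by its general consensus, was in 0.119% of all windows and in 0 of the 52 member windows, Txnip's and Arrdc4's included. The tandem element of Txnip does not match that consensus in every letter. The 0 therefore does not mean that Txnip lacks such an element. CACGTG was in 7.15% of all windows and in 8 of the 52 member windows. The glucocorticoid receptor's palindrome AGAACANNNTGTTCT was in 3 windows of the 32851 and in 0 of the members', and its half-site AGAACA in 19.0% of all windows and 7 of the members'. A match in these letters is a description, and binding was not measured.

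An antisense gene, Gm15441, overlaps Txnip on the other strand, and their transcripts share 443 bases. It had 105, 113 and 105 FPKM with overexpression and 61.2, 59.6 and 62.0 FPKM in controls, with a log2 difference of 0.81 (limma adjusted p = 0.000165). The library kit marks strand, but the strand setting of the counting is not stated in the labels, so reads from Txnip and Gm15441 may not have been told apart.

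Of the 4 members of lactate production and export, 3 were tested and 2 fell. Slc16a1, which encodes the lactate and pyruvate carrier MCT1, had 12.03, 10.7 and 10.5 FPKM in overexpression 1 to 3, against 15.7, 16.8 and 14.8 FPKM in control 1 to 3, with no overlap. The log2 difference of -0.47 (SE 0.08; adjusted p = 0.0053 in limma) held its call in each of the 17 alternatives (-0.53 to -0.37). Ldha, the lactate dehydrogenase subunit that dominates in glycolytic cells, had 213, 204 and 221 FPKM with overexpression and 258, 283 and 250 FPKM in controls, again with no overlap. In log2 it differed by -0.31 (SE 0.08; adjusted p = 0.0353 in limma). The Ldha call was lost whichever library was omitted (adjusted p 0.0529 to 0.161) and without the 2 deepest libraries (0.0605), while the difference stayed between -0.36 and -0.25.

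The paralogs of these genes did not pass. Ldhb, the subunit of oxidative tissues, had 6.72, 5.67 and 5.98 FPKM with overexpression and 4.57, 7.91 and 6.50 FPKM in controls, where control 1 and control 2 bracketed all other libraries. Its share of Ldha and Ldhb together was 2.80% ± 0.230 with overexpression and 2.33% ± 0.519 in controls (SD, n = 3; exact permutation p = 0.3). Slc16a3, the lactate exporter MCT4 of highly glycolytic cells, had 0.483, 0.605 and 0.683 FPKM with overexpression and 0.547, 0.527 and 0.370 FPKM in controls. It was under the limit of 1 FPKM and, with no filter, had an adjusted p = 0.461. As a share of Slc16a1 and Slc16a3 it was 3.86%, 5.36% and 6.10% with overexpression, against 3.37%, 3.05% and 2.44% in controls, which did not overlap (exact permutation p = 0.1, the smallest possible; adjusted p = 0.26).

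HIF1A is known to bind the letters ACGTG and GCGTG, and the promoters of the 2 called lactate genes are shown for them, Slc16a1 (chr3:104638414-104638663, plus strand, GRCm38.p6) and Ldha (chr7:46845554-46845803, plus strand, from 1 of its 2 RefSeq starts), each with the 250 bases upstream of its RefSeq start and with both cores, read on either strand, in capitals.
Slc16a1: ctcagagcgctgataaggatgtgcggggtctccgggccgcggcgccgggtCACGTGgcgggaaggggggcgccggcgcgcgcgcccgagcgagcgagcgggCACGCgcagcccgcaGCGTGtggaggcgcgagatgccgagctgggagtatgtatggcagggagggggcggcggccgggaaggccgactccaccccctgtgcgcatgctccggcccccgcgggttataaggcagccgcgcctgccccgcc
Ldha: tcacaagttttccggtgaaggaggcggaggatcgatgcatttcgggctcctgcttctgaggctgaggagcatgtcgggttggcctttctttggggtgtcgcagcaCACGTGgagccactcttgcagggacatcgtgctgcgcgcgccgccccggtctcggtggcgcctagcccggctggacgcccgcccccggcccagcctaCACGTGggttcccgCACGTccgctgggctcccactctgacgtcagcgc

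Over all members, ACGTG was in 29 of 52 windows (55.8%), against 19.6% of all 32851 windows, and GCGTG in 30 (57.7%), against 32.4%. The list was made of known glycolysis and hypoxia genes, so a share above that of all windows was partly built in. Some members, such as Pfkm and Eno1, have windows that overlap, so a site can be counted more than once. CACGTG contains ACGTG on both strands, so the counts overlap with those of the E-box. Of 38 members with a window, Pygl included and Bnip3l not, 26 held ACGTG, among them members that rose (Arrdc4, Hif1a), fell (Slc16a1, Ldha, Egln1, Gapdh) or did not pass (Slc2a1, Pgk1, Vegfa, Car9). In Gapdh it lay downstream of the start, at 43 to 47. The called members without it were Txnip and Tpi1.

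Between the split of the sugar and pyruvate, all 7 members of lower glycolysis had negative differences, and 2 passed. Tpi1, triosephosphate isomerase, had 217, 216 and 235 FPKM with overexpression and 267, 308 and 263 FPKM in controls, with no overlap. Its log2 value differed by -0.32 (SE 0.09; adjusted p = 0.0438 in limma), and the call was lost whichever library was omitted (adjusted p 0.0551 to 0.168) with no filter on low values (0.0509) and without the 2 deepest libraries. Pgk1, phosphoglycerate kinase, had 369, 335 and 348 FPKM with overexpression and 428, 440 and 389 FPKM in controls, also with no overlap, but its difference of -0.26 did not pass (adjusted p = 0.0859). It passed under quantile normalization (0.0163), with a GC curve removed (0.0297) and with voom on recovered reads (0.0438). Pgk1 is called lower in the authors' deposited table as well (log2 fold change -0.26, adjusted p = 0.00721).

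The remaining steps did not pass and their groups overlapped. Pkm, which encodes the muscle-type pyruvate kinase, had 304, 292 and 317 FPKM with overexpression and 309, 352 and 317 FPKM in controls (-0.10, SE 0.08). Pgam1, phosphoglycerate mutase, averaged 331 FPKM with overexpression and 354 FPKM in controls (-0.10). The enolase gene Eno1 averaged 149 FPKM with overexpression and 164 FPKM in controls (-0.13), and its neuronal paralog Eno2 1.55 FPKM with overexpression and 1.85 FPKM in controls (-0.16). Eno2 made up 1.02% ± 0.0446 of the enolase pair with overexpression and 1.12% ± 0.0677 in controls (SD, n = 3; exact permutation p = 0.3). Without Gapdh, the 6 other members of lower glycolysis summed to 1351, 1313 and 1416 FPKM in overexpression libraries, against 1480, 1674 and 1480 FPKM in control libraries. Those sums did not overlap, and control 2 was the highest.

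Gapdh needs its own account. The deposited table lists 20 genes elsewhere in the genome that match Gapdh transcripts at 95% identity or more over at least 300 bases. That table labels all but 1 of them processed pseudogenes. Gapdh had 6.19, 10.01 and 15.0 FPKM with overexpression and 30.3, 44.8 and 17.3 FPKM in controls. Each overexpression library was below every control, but overexpression 3 and control 3 were close. In log2 the groups differed by -1.45 (SE 0.36; adjusted p = 0.0315 in limma), and the call ended without control 1 or 2 or overexpression 1 or 2 (adjusted p 0.0785 to 0.0863) and without the 2 deepest libraries (0.0503). These levels are far below those of Tpi1 and Pgk1. Over the 6 libraries, 15010 recovered reads were on Gapdh and 73667, or 83.1% of both, on the 20 copies. The copies held 367, 379 and 454 RPM (recovered reads scaled to the library total) with overexpression and 382, 521 and 456 in controls, and gene and copies together 393, 420 and 516 with overexpression and 507, 706 and 527 in controls. In that sum overexpression 3 lay above control 1, so the groups overlapped. How reads with several equal matches were counted is not stated in the labels, and the Gapdh value is therefore uncertain.

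**Figure D3:**
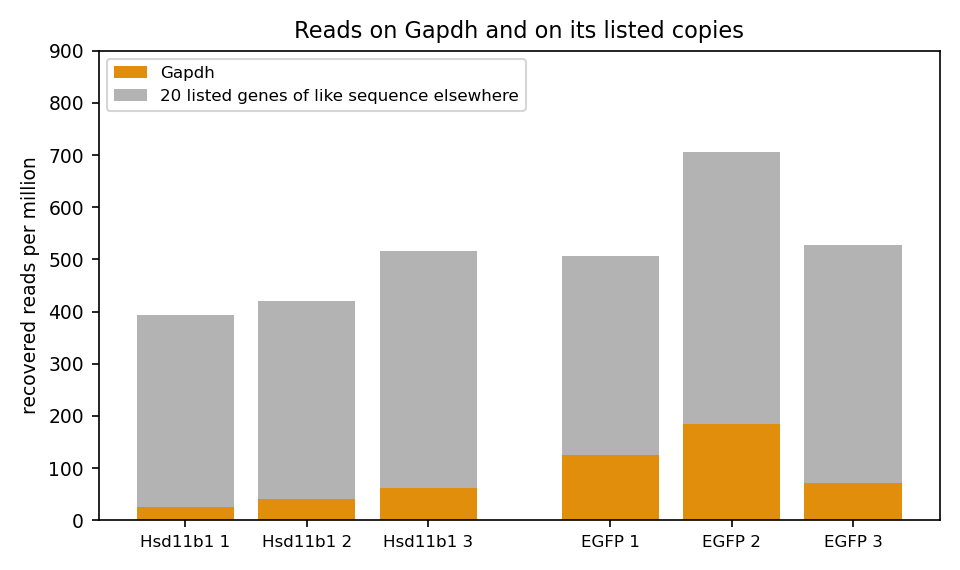
Recovered reads, as RPM, on Gapdh (orange) and, stacked above it, on the 20 listed genes of like sequence elsewhere (grey), in the 3 overexpression libraries (Hsd11b1) and the 3 control libraries (EGFP). The orange part is 25.6 to 62.2 with overexpression and 71.3 to 185 in controls, while the grey part, the larger in all 6 libraries, overlaps between the groups.

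By recovered reads, copies elsewhere in the genome held a smaller share for the other members. Of the 10 members with such matches elsewhere, Bnip3 and Bnip3l had 8.25% and 8.34% of the joint reads on the copies, Eno1 4.57% and the remaining 6 beside Gapdh under 1% each. The Eno1 copies include the coding retrogene Eno1b, which averaged 15.5 FPKM with overexpression and 17.2 FPKM in controls and did not pass (limma adjusted p = 0.346). These shares leave out matches with overlapping genes, which 6 members had (Txnip, Pfkp, Bnip3, Pkm, Pfkm and Pgm2). The shares also leave out any reads that were counted on no listed gene. Bnip3 shares 347 bases with the antisense gene Gm45507, which held 706 recovered reads in overexpression 1, against 1493 on Bnip3 itself. Such reads may not have been told apart.

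All 3 members of glucose uptake and first phosphorylation had negative differences, as had 3 of the 4 members of upper glycolysis, and 0 passed in limma, while Slc2a1, Hk2 and Gpi1 had unadjusted p = 0.0475, 0.0112 and 0.0315. The transporter gene Slc2a1 (GLUT1) had 21.8, 20.3 and 24.0 FPKM with overexpression and 23.3, 29.2 and 25.3 FPKM in controls. Overexpression 3 lay above control 1, and -0.22 in log2 (SE 0.10; adjusted p = 0.189 in limma) did not pass. Hk2, the inducible hexokinase, had 8.66, 8.93 and 9.64 FPKM with overexpression and 10.9, 10.4 and 10.8 FPKM in controls, with no overlap and a difference of -0.22 (SE 0.07, limma adjusted p = 0.0756). Hk1, the constitutive hexokinase and the more abundant of the pair, averaged 37.8 ± 1.34 FPKM with overexpression and 40.7 ± 0.171 FPKM in controls (SD, n = 3; -0.10). The share of Hk2 in the pair was 18.9%, 19.4% and 19.7% with overexpression, against 21.2%, 20.2% and 21.0% in controls (exact permutation p = 0.1, the smallest possible; adjusted p = 0.26). Gpi1, glucose phosphate isomerase, averaged 58.1 ± 4.89 FPKM with overexpression and 67.7 ± 5.10 FPKM in controls (SD, n = 3), and its difference of -0.22 did not pass (adjusted p = 0.147). With a GC curve removed, Slc2a1, Hk2, Gpi1 and Pfkl all passed (adjusted p 0.0192 to 0.0365).

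Phosphofructokinase, the committed step, is built from liver, muscle and platelet subunits, and here the liver and muscle genes were the more abundant. Pfkl averaged 20.7 FPKM with overexpression and 24.0 FPKM in controls (-0.20, adjusted p = 0.202), Pfkm 21.2 FPKM with overexpression and 23.4 FPKM in controls (-0.14) and Pfkp 9.69 FPKM with overexpression and 9.31 FPKM in controls (0.05). The Pfkl share of the 3 was 39.8%, 39.8% and 40.5% with overexpression, against 40.7%, 44.1% and 41.7% in controls (exact permutation p = 0.1, the smallest possible; adjusted p = 0.26). The Pfkp share, 18.9% ± 1.57 with overexpression and 16.5% ± 1.24 in controls (SD, n = 3), overlapped between the groups. Pfkp shares 748 bases with the overlapping gene Pitrm1.

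The bifunctional enzymes that set the level of the phosphofructokinase activator were low and did not pass. Pfkfb3, the isoform most tied to fast glycolysis, had 1.92, 1.68 and 1.82 FPKM with overexpression and 1.51, 1.65 and 1.99 FPKM in controls, so the controls bracketed the overexpression libraries (0.05, SE 0.09). Pfkfb2 and Pfkfb4 averaged 1.56 and 2.004 FPKM with overexpression, against 1.46 and 1.88 FPKM in controls, each with a difference of 0.06 that did not pass. The shares of the 3 in their sum differed by at most 0.292 percentage points between the group means. Tigar, a phosphatase that lowers the same activator, had 2.15, 2.12 and 2.45 FPKM with overexpression and 2.87, 2.73 and 3.01 FPKM in controls, with no overlap and a difference of -0.26 (SE 0.08, limma adjusted p = 0.0726), which passed with a GC curve removed (0.0313) and with arrayWeights.

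**Figure D4:**
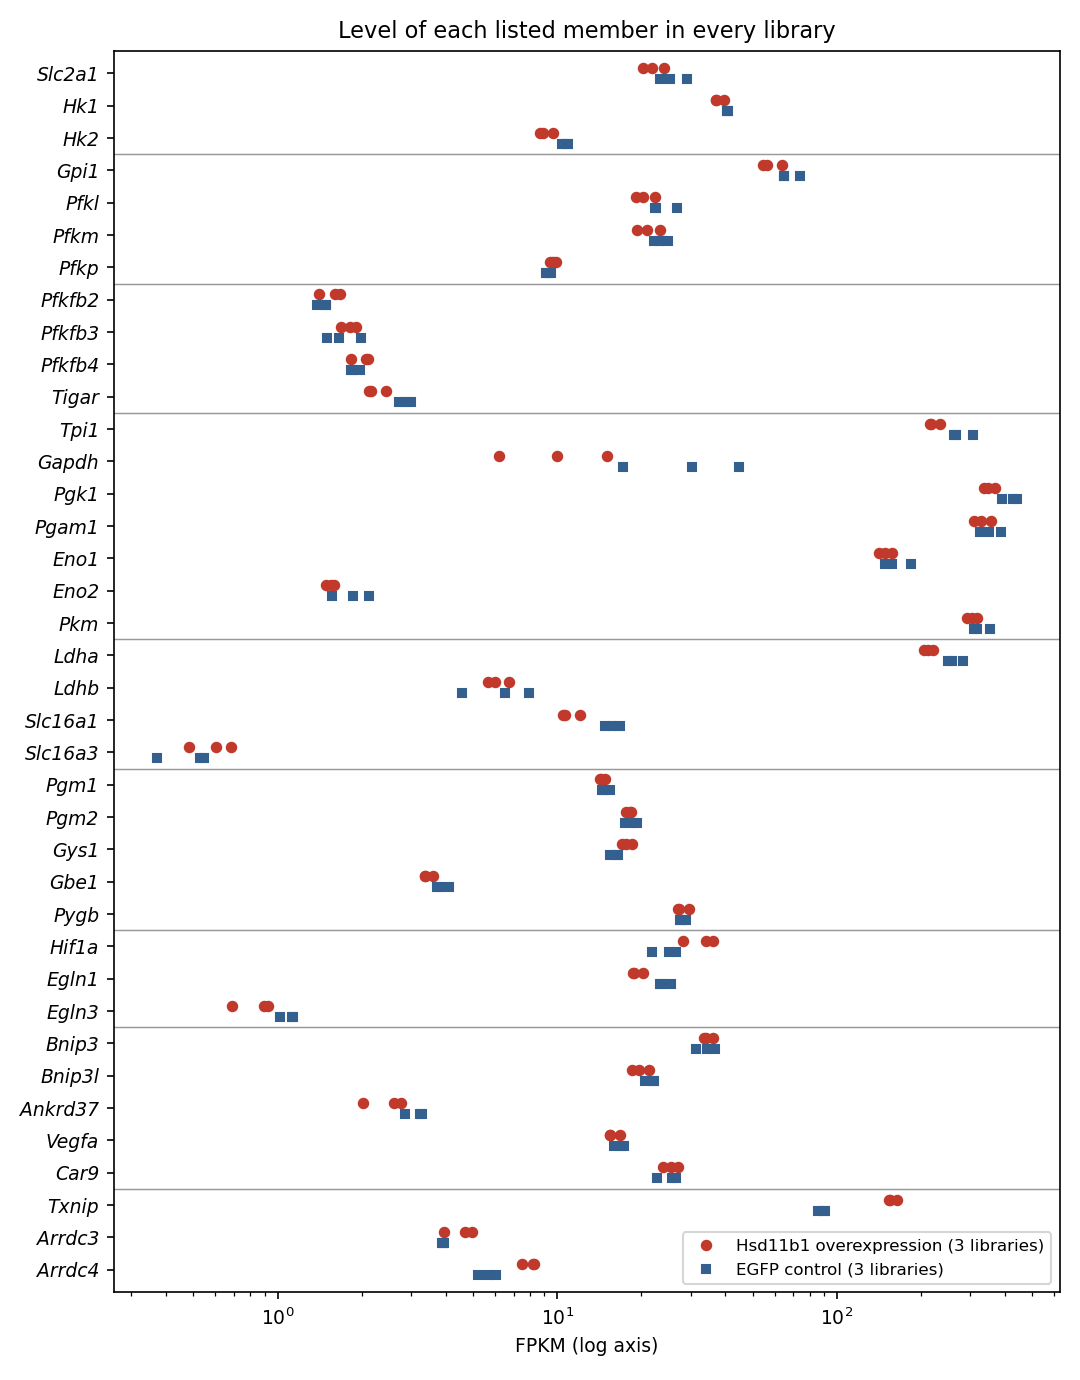
FPKM of the 38 listed members in each library on a log axis, ordered by role and separated by lines, with overexpression libraries as circles above the control libraries as squares. Levels run from under 1 FPKM for Slc16a3 to means of 331 FPKM and more with overexpression for Pgk1 and Pgam1, and Gapdh has the widest spread within groups, 6.19 to 15.0 FPKM with overexpression and 17.3 to 44.8 FPKM in controls.

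The 5 glycogen members with a value did not pass. Gys1, the glycogen synthase of non-liver tissues, had 17.7, 17.04 and 18.5 FPKM with overexpression and 15.4, 16.6 and 16.2 FPKM in controls, with no overlap and a difference of 0.14 (SE 0.06, limma adjusted p = 0.229). Gbe1, the branching enzyme, had 3.38, 3.61 and 3.38 FPKM with overexpression and 3.72, 3.801 and 4.09 FPKM in controls (-0.13, adjusted p = 0.306). Pygb, the brain-type phosphorylase, averaged 28.0 FPKM with overexpression and 28.1 FPKM in controls. Pgm1 (ENSMUSG00000029171 in the table) averaged 14.5 FPKM with overexpression and 14.9 FPKM in controls, and Pgm2 (ENSMUSG00000025791) 18.1 FPKM with overexpression and 18.5 FPKM in controls. GENCODE M21 gives these IDs the opposite names. Of 17 further glycogen genes listed, 13 were tested. Pygm, Phka2 and Stbd1 rose (0.37, 0.25 and 0.24) and 0 fell, against 6.22% higher and 5.84% lower of all genes tested. Each of these calls ended with at least 5 of the 6 libraries left out in turn (adjusted p up to 0.1 for Pygm, 0.167 for Phka2 and 0.135 for Stbd1).

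Of the 3 members of oxygen sensing, Hif1a rose, Egln1 fell and Egln3 was under the limit for the test. Hif1a had 33.9, 36.1 and 28.1 FPKM in overexpression 1 to 3, against 25.2, 21.9 and 26.6 FPKM in control 1 to 3. The groups did not overlap, but overexpression 3 was near control 3. The log2 values differed by 0.40 (SE 0.11; adjusted p = 0.0453 in limma). Omitting any library but overexpression 3 ended the call (adjusted p 0.0651 to 0.158), as did quantile normalization (0.0703) and no filter on low values (0.0514), while the difference stayed between 0.32 and 0.50. Egln1, the main prolyl hydroxylase (PHD2) that marks HIF1A, had 18.6, 18.9 and 20.2 FPKM with overexpression and 23.4, 25.6 and 23.7 FPKM in controls, with no overlap. At -0.32 in log2 (SE 0.07; adjusted p = 0.0175 in limma) it passed, and the call ended without control 3, overexpression 1 or overexpression 2 (adjusted p 0.0535 to 0.0833). Egln3, a hydroxylase that HIF itself induces, had 0.924, 0.685 and 0.896 FPKM with overexpression and 1.13, 1.02 and 1.13 FPKM in controls. Its overall mean was under 1 FPKM, and with no filter its difference was -0.19 (adjusted p = 0.149).

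The promoters of the called pair are shown with ACGTG and GCGTG on either strand in capitals, in the 250 bases upstream of the RefSeq start of Egln1 (chr8:124949255-124949504, minus strand, GRCm38.p6) and Hif1a (chr12:73907617-73907866, plus strand). Egln1 is itself a known HIF target.
Egln1: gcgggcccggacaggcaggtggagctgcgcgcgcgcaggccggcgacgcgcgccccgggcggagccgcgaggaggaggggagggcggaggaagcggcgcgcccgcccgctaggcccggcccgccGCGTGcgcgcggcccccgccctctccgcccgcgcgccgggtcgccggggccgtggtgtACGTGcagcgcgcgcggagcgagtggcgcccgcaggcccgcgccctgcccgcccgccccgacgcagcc
Hif1a: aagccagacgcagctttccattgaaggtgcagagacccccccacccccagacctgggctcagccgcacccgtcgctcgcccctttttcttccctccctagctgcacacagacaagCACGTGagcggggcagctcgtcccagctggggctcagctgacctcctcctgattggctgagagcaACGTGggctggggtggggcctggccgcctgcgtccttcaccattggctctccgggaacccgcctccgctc

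**Figure D5:**
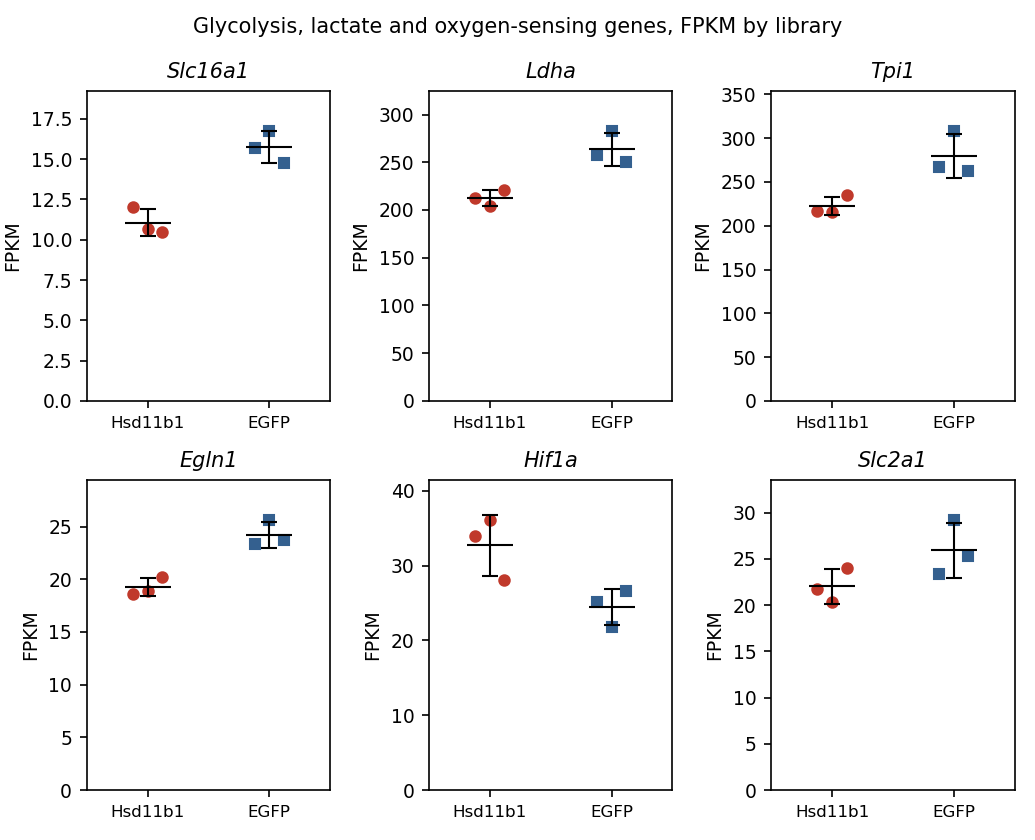
FPKM of Slc16a1, Ldha, Tpi1, Egln1, Hif1a and Slc2a1 in each overexpression library (Hsd11b1, circles) and control library (EGFP, squares), with the mean and 1 SD (n = 3) in black and axes that start at 0. In the first 4 panels every overexpression library lies below every control, Hif1a has the opposite order, and for Slc2a1 the groups overlap.

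The hypoxia targets among the members did not pass. Vegfa, the angiogenic growth factor, had 15.5, 15.4 and 16.8 FPKM with overexpression and 16.0, 17.3 and 16.98 FPKM in controls (-0.07, SE 0.07). Car9, the carbonic anhydrase used as a marker of hypoxia, averaged 25.5 FPKM with overexpression and 25.1 FPKM in controls (0.02). Of the mitophagy receptor genes, Bnip3 averaged 34.5 FPKM with overexpression and 34.1 FPKM in controls (0.02), and Bnip3l 19.8 FPKM with overexpression and 21.6 FPKM in controls (-0.12). Ankrd37 had 2.77, 2.61 and 2.03 FPKM with overexpression and 3.29, 2.86 and 3.24 FPKM in controls, with no overlap and a difference of -0.26 (adjusted p = 0.151).

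A longer list of hypoxia targets moved in both directions. Of 26 listed, 25 were tested, and 7 rose and 5 fell, against 6.22% higher and 5.84% lower of all genes tested. These counts were smaller with fewer libraries. They were 3 higher and 4 lower without overexpression 1, and 4 higher and 3 lower without overexpression 2. Without the 2 deepest libraries, 5 were higher and 2 lower. Ddit4, which restrains mTORC1, had 155, 148 and 177 FPKM with overexpression and 66.4, 87.5 and 77.8 FPKM in controls (1.05, limma adjusted p = 0.000701). Among those that fell were Rbpj, the DNA-binding factor of Notch signalling (9.75 FPKM with overexpression and 14.7 FPKM in controls), and Anln, which encodes anillin of the cell division furrow (19.2 FPKM with overexpression and 27.9 FPKM in controls). Ddit4 is also a known glucocorticoid target. The calls of Ddit4, Rbpj and Anln held in each of the 17 alternatives. Of 10 tested genes for HIF subunits and their regulators, Siah1a (0.44) and the coactivator gene Ep300 (0.37) rose and 0 fell. Siah1a encodes a ubiquitin ligase for the hydroxylases. The Ep300 call ended without overexpression 1, without overexpression 2 and without the 2 deepest libraries (adjusted p up to 0.0930). Siah2, also among the 10, averaged 4.62 FPKM with overexpression and 5.87 FPKM in controls, with no overlap. Its difference of -0.29 did not pass (limma adjusted p = 0.0899). In this group 1 gene was called lower with arrayWeights, with a GC curve removed and without overexpression 3. The HIF subunit gene Hif3a was too low for the test, with 0.546, 0.463 and 0.450 FPKM with overexpression and 0.0224, 0.0426 and 0 FPKM in controls, with no overlap. With no filter on low values, 3 of the 11 listed genes of this group were called higher, against 892 of all 15796 genes.

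Of 18 tested glycolysis and glucose transport genes outside the list, 2 rose and 3 fell. The shares over all genes tested were 6.22% higher and 5.84% lower. Eno3, the muscle enolase, had 24.3, 27.9 and 29.3 FPKM with overexpression and 17.4, 20.8 and 17.9 FPKM in controls (0.52, limma adjusted p = 0.0085). Galm, galactose mutarotase, averaged 16.6 FPKM with overexpression and 12.4 FPKM in controls (0.40). Bpgm, the bisphosphoglycerate mutase gene (-0.31), and Gpd2, the mitochondrial glycerol phosphate dehydrogenase gene (-0.33), were among those that fell, and each call ended with 3 of the 6 libraries left out in turn (adjusted p up to 0.0734 for Bpgm and 0.0842 for Gpd2). The main Aldoa row, for aldolase A, averaged 293 FPKM with overexpression and 314 FPKM in controls and did not pass. A second, lower Aldoa row averaged 5.12 FPKM with overexpression and 3.56 FPKM in controls, with no overlap. Its difference of 0.46 did not pass (limma adjusted p = 0.13).

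Among 10 tested genes of the pentose phosphate pathway, 2 rose and 0 fell, against 6.22% higher and 5.84% lower of all genes tested. H6pd, the enzyme of the endoplasmic reticulum that supplies NADPH to 11β-HSD1, had 13.6, 14.6 and 15.5 FPKM with overexpression and 7.44, 8.40 and 8.28 FPKM in controls (0.78, limma adjusted p = 0.00046). Prps1 rose by 0.34 and lost its call without control 3, overexpression 1 or overexpression 2 (adjusted p up to 0.0767). Of 15 tested genes of pyruvate entry into mitochondria, Pdk4, the kinase that shuts off pyruvate dehydrogenase, was the 1 that rose, with 51.8 FPKM with overexpression and 27.1 FPKM in controls (0.91, limma adjusted p = 0.00017), and 0 fell. Pdha1 (0.25, limma adjusted p = 0.0511) and Pdk1 (-0.21, limma adjusted p = 0.0594) did not pass, though their groups did not overlap. With arrayWeights and with a GC curve removed, 3 of these genes were called higher and 1 lower. The gluconeogenesis genes tested, Pck2 (0.06), G6pc3 (-0.09) and Slc37a4 (0.08), did not pass and had unadjusted p of at least 0.396.

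Depth and GC content differed between libraries of the same group. Control 2 was the highest control for 24 of the 36 tested members (66.7%), against 37.2% of all genes tested, and overexpression 3 the highest of its group for 19 (52.8%), against 41.1%. Across the tested genes, which are not independent, each library's deviation from its group mean correlated with transcript GC content at a Spearman's rho of -0.44, -0.45 and 0.67 in overexpression 1 to 3 and -0.56, 0.53 and 0.09 in control 1 to 3. The median GC of the tested members was 51.7%, against 49.7% for all genes tested. When a smooth curve on GC was removed from each library, 4 members were higher and 11 lower, among 1192 higher and 1313 lower of 13091 genes, or 9.11% higher and 10% lower. Without overexpression 3 and control 2, 3 were higher (Txnip, Arrdc4 and Hif1a) and 2 lower (Slc16a1 and Egln1). Leaving out 1 library at a time gave 2 to 3 higher and 1 to 3 lower members. The lowest count of 1 lower member came without overexpression 1 and without overexpression 2, where it was Slc16a1. The authors' deposited table calls 3 members higher and 6 lower with the same threshold, the 8 called here and Pgk1, against 6.74% and 6.36% of its genes.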

How the data were processed

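RNA of 6 MC3T3-E1 libraries (3 per group) was measured by RNA-seq with a stranded mRNA kit, per the labels' protocols. The authors deposited 1 table of FPKM per gene for the 6 libraries, with a log2 fold change and p-values of their own comparison. Per the submitters' processing notes, cutadapt 2.5, HISAT2 2.1.0 and featureCounts 1.6.3 were used with mm10. Neither the annotation nor the strand setting is given in the sources used here. Members were matched by gene name.

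Every gene whose FPKM averaged 1 or more was fitted together with limma 3.58.1 (R 4.3.3) on log2(FPKM + 1), with a trend and no covariate, two-sided, and p-values were adjusted by Benjamini-Hochberg over them. Fold changes on this scale understate those of low genes. FPKM times GENCODE M21 exon length gave whole reads in every library for 14384 of 15776 genes with a length. The margin was 0.05 reads, and wider for genes with more than 1000 reads in a library. Reads per tested member and library were 75 to 92933, and their number sets the counting error only. Listed genes of like sequence were found with blastn 2.17.0. Promoter sequences are from RefSeq (GRCm38.p6).

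Values in every library are given for members that pass and for Slc2a1, Hk2, Pfkfb3, Gapdh, Pkm, Ldha, Slc16a1, Hif1a, Egln3, Vegfa and Txnip, and for a few others where they show an overlap or its absence. Of each other list, up to 4 genes that pass with the smallest p are named. One gene that this rule would name is not reported here. The members and lists were chosen with earlier results of these data known. Alternatives changed the pseudocount, filter, scaling, weights, libraries, GC correction and test.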

Additional observations from a re-analysis of the deposited data

How the results depend on the processing

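The counts of 3 members higher and 5 lower varied most on the lower side. Members lower numbered 3 with the replicate block, 9 with arrayWeights, 2 without the 2 deepest libraries and 11 with a GC curve removed, and 1 to 3 with 1 library left out. Members higher numbered 4 with a GC curve removed and 2 to 3 in the other settings just named. Over all genes, arrayWeights called 1357 higher and 1403 lower, the GC curve gave 1313 lower, the fit without the 2 deepest libraries 478 lower, and leaving out 1 library 483 to 719 higher and 412 to 618 lower. The members' median difference was -0.14 to -0.05 with 1 library left out. The cause of these shifts was not tested, beyond fewer libraries in the fits that left some out.

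Libraries of the same replicate number had correlations of deviations of 0.21, -0.29 and -0.03. The highest correlation, 0.42, was between overexpression 3 and control 2, the 2 deepest libraries. Whether the replicates were paired cannot be read from these values. With the replicate block 2 members were higher and 3 lower, with Tpi1 (adjusted p = 0.0909), Ldha (0.0930) and Hif1a (0.0760) losing their calls. Signs reversed for members near 0 that did not pass: Pygb was 0.005 with median-of-ratios scaling, Pfkfb3 -0.038 with arrayWeights, Car9 -0.014 with a GC curve removed and Ldhb 0.151 without the 2 deepest libraries. With 1 library left out, Pfkfb3 ranged from -0.008 to 0.12, Car9 from -0.043 to 0.068, Pygb from -0.045 to 0.017, Ldhb from -0.201 to 0.138 and Bnip3 from -0.039 to 0.066. Isoform shares cannot pass 0.05 with 3 against 3 libraries.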
